A study of Mus musculus with 4 samples.

Results

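The genes described here are the replication-dependent histone genes of the mouse: every gene whose symbol begins with Hist1h, Hist2h, Hist3h or Hist4h in the count tables. They were 69 of 24453 genes in the tables. By product they were 6 linker histone H1 genes, 19 H2A, 19 H2B, 12 H3 and 13 H4 genes. By symbol they were 55 Hist1 genes on chromosome 13, 10 Hist2 genes on chromosome 3, 3 Hist3 genes on chromosome 11 and 1, Hist4h4, on chromosome 6. Hist1h2al lies apart, at 51202727 to 51203065 on chromosome 13, while the other Hist1 genes lie between 21715763 and 23934851. Hist1h2al and Hist3h2bb-ps are annotated as processed pseudogenes.

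RNA was measured in EpCAM-positive cells sorted from mouse tongue epithelium at embryonic day 16, with the circumvallate papilla region at the back cut away. The 4 libraries were 2 labelled Control, whose genotype the labels do not spell out, and 2 labelled Ring1a/b 2KO, from Ring1a-/- Ring1b fl/fl embryos carrying Krt14-Cre. In the second group the Ring1 gene (Ring1a) is deleted in every cell, whereas Rnf2 (Ring1b) is cut by Cre from the Krt14 promoter, that is in cells that have made keratin 14 or descend from such cells. The labels do not say whether the libraries of a group came from different embryos, so the spread behind each p-value is that of these libraries and could be technical. RING1 and RNF2 are the catalytic subunits of Polycomb repressive complex PRC1 and place ubiquitin on histone H2A, so the comparison asks how transcript levels differ in epithelium lacking both.

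Totals ranged from 16256569 to 20624055 counts per library, of which 15.3 to 22.9% fell on the ribosomal precursor Rn45s, the higher shares in the libraries labelled 2KO. Gene-level counts did not show the deletions. Ring1 stood at 9.02 and 8.57 CPM (counts scaled to library size) in control and 16.8 and 15.0 CPM in the libraries labelled 2KO, and Rnf2 at 34.0 and 51.3 against 62.9 and 62.4 CPM. Neither difference passed the test, and which exons are deleted is not stated, so the genotypes rest on the labels. Control replicate 2 stood apart in skeletal muscle transcripts, which summed to 428 CPM there and to 67.4 to 83.9 CPM in the other 3. The 10 epithelial markers summed to 16470 and 14180 CPM in control and to 11133 and 11337 CPM in the 2KO-labelled libraries. Of these 3 fell (Perp, Krt14 and Krt5), 1 rose (Krt18) and 6 did not pass, with a median log2 fold change of -0.22. In the same test, described below, 4.92% of all tested genes fell and 7.00% rose. Epcam itself stood at 221 and 189 against 216 and 245 CPM.

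Replication-dependent histone genes supply the histones that package new DNA in S phase. Their transcripts are not polyadenylated as other messenger RNAs are. They end just after a short conserved stem-loop, which is bound by SLBP and cut with the help of the U7 small nuclear RNA, and they are degraded when replication stops. Core histones H2A, H2B, H3 and H4 form the nucleosome, and linker histone H1 binds the DNA between nucleosomes. The libraries were made by amplifying 15 ng of RNA with a kit that, as general background, primes from random sites as well as from oligo-dT. How that priming bears on these transcripts was not tested.

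The stem-loops found in genes that fell, and that of Hist1h4d, are shown first, since this element defines the family. Each is given as DNA, 5′ to 3′, from the annotated GENCODE M21 transcript (build GRCm38), with the 16-base stem-loop in capitals and 5 bases on each side.
Hist1h1d: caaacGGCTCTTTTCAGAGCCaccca
Hist1h1e: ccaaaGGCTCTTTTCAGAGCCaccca
Hist1h1c: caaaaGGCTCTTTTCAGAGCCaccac
Hist2h2ac: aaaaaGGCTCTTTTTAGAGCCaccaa
Hist1h3f: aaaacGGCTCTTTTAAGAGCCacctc
Hist1h4c: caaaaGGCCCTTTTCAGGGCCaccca
Hist1h4d: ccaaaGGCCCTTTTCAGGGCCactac

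The search was for GGNNNTNNNNANNNCC with 6 paired stem bases and a loop of 4, on the sense strand within 100 bases of the stop codon. It found a match in 46 of 52 histone genes whose annotated transcript passes the stop codon by at least the length of the element. Other genes were searched where at least 100 bases are annotated after the stop codon. Of these, 12 of 19894 (0.06%) had a match, the variant histone gene H2afx among them. The remaining 17 histone genes, among them Hist1h1b, Hist1h2ak and Hist2h2ab, which fell, could not be searched. Their annotated transcript ended at the stop codon or at most 2 bases after it. The pseudogenes Hist1h2al and Hist3h2bb-ps, also among them, have no annotated protein-coding transcript. No match was found for Hist1h1a, Hist1h2bc (which fell), Hist1h2bq, Hist1h2br, Hist2h2be and Hist2h3b. This says only that these letters were not in the annotated part of that window. Only 37 bases were annotated after the stop codon in Hist2h3b and 48 in Hist1h1a, so an element further on could not be found there. Matches began 21 to 58 bases after the stop codon, with a median of 31.0. The annotated transcript ran on past the stem-loop by 4884 bases in Hist1h1d, 1153 in Hist1h1e and 840 in Hist1h1c. It did so by 454 bases in Hist1h4c, 365 in Hist1h3f, 57 in Hist2h2ac and 770 in Hist1h4d. Of tested genes with over 100 such bases 5 of 21 fell (median log2 fold change -0.18), and with at most 100, 1 of 18 (-0.41). Of all tested genes 4.92% fell. The difference between these sets was not tested, and their medians differed the other way from their counts. Whether counts came from RNA ending at the stem-loop or running past it was not tested. The form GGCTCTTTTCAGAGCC was shared by 26 genes, 3 of H1, 10 of H2A, 8 of H2B and 5 of H3. All 12 H4 matches had other letters in the stem, and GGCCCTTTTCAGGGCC was the form of 7 of them. H4 transcripts were thus set apart from the other types by the stem itself, and Hist1h4c, which fell in the comparison, has the same form as Hist1h4d, which did not pass.

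Of the 69 genes, 61 had a count in some library and 58 passed the filter on low counts and were tested. In the libraries labelled 2KO, 10 of the 58 fell, 0 rose and 48 did not pass (edgeR quasi-likelihood test, Benjamini-Hochberg adjusted p under 0.05 over all 15336 genes tested). Over all tested genes 4.92% fell, 7.00% rose and 11.9% passed in either direction. DESeq2 and limma-voom also called 0 histone genes higher, and at an unadjusted p under 0.05 edgeR had 1, Hist2h3b. The 10 that fell were 4 H1 genes (Hist1h1d, Hist1h1e, Hist1h1b and Hist1h1c), 3 H2A genes (Hist1h2ak, Hist2h2ab and Hist2h2ac), 1 H2B gene (Hist1h2bc), 1 H3 gene (Hist1h3f) and 1 H4 gene (Hist1h4c). The median log2 fold change, 2KO against control, was -0.36 over the 58 tested histone genes and 0.01 over all genes, and 39 of the 58 lay below 0, against 49.6% of all genes. The libraries of the groups did not overlap for 29 of the 58, 24 of them lower in 2KO; over all tested genes 57.7% did not overlap and 28.7% were lower without overlap. With these bulk libraries, fewer cells in S phase and less histone RNA per cell cannot be told apart.

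**Figure D1:**
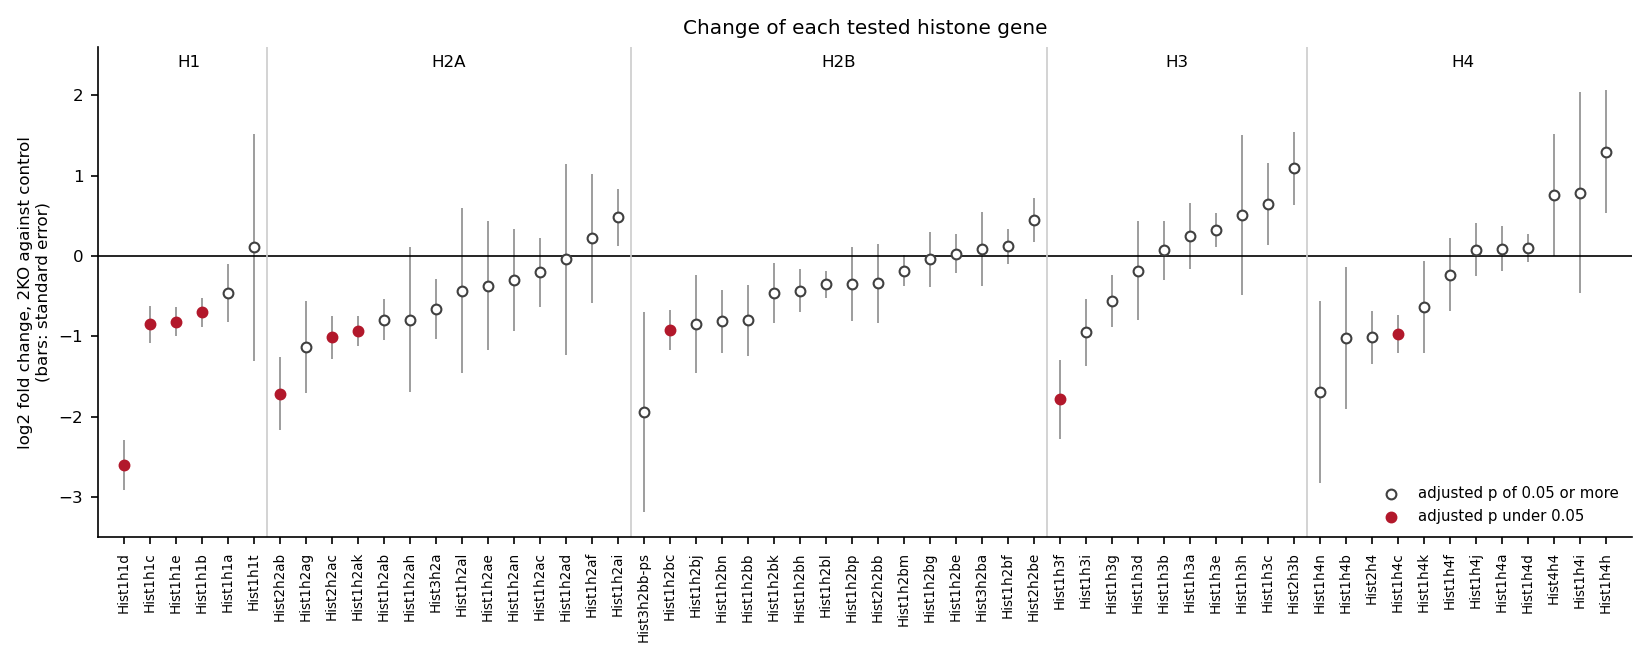
Log2 fold change of each of the 58 tested histone genes, 2KO against control, ordered within each histone type. Bars are standard errors worked back from the edgeR test with 2 libraries per group, and red points have an adjusted p under 0.05. All 10 red points lie below 0, 4 of them among the 6 H1 genes, and the H3 and H4 genes lie on both sides of 0.

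Only Hist1h1d and Hist1h2ak passed in all 4 fits that left out 1 library. The number of histone genes that fell was 15 without control replicate 1, 5 without control replicate 2, 6 without 2KO replicate 1 and 9 without 2KO replicate 2; of all genes tested in these fits 6.85, 5.29, 3.36 and 3.56% fell. On the authors' deposited FPKM values (fragments per kilobase of transcript, scaled to library size) it was 3 with a pseudocount of 1 and 2 with a pseudocount of 0.1, against 1.65 and 1.38% of all genes.

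The counts by histone type that follow stand beside the 4.92% of all tested genes that fell. Among the linker histones 4 of 6 genes fell. The number was 4 without control replicate 1, 3 without control replicate 2, 1 without 2KO replicate 1 and 2 without 2KO replicate 2. Hist1h1d (H1f3 in RefSeq, chromosome 13, 23553262 to 23560686, plus strand, GRCm38) encodes a somatic H1 subtype. Its level was 23.4 and 33.4 CPM in the control libraries, against 4.65 and 4.70 CPM in those labelled 2KO. Both 2KO-labelled libraries were far below both controls and almost equal to each other. The fall was 6.07-fold (log2 fold change -2.60, SE 0.31, adjusted p = 0.000501), and the log2 fold change was -2.32 to -2.81 when 1 library at a time was left out. It was the change of greatest size among the 58 tested histone genes.

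Hist1h1e (H1f4), the most abundant H1 gene here, had 212 and 213 CPM in control against 101 and 139 CPM in 2KO. The 2 controls were nearly equal and the 2KO-labelled libraries differed more from each other, without reaching the controls. The log2 fold change was -0.82 (SE 0.18, adjusted p = 0.0145). Without 2KO replicate 1, the lower of the 2, it was -0.61 with an adjusted p of 0.0972. Part of the annotated Hist1h1e exon overlaps a long transcript of Hist1h2be on the same strand, so the counts of both genes are uncertain to that extent.

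Hist1h1b (H1f5) stood at 74.8 and 78.5 CPM in control against 46.0 and 48.5 CPM, with both groups tight and well apart. Its log2 fold change of -0.70 (SE 0.18, adjusted p = 0.0282) did not pass without 2KO replicate 1 (adjusted p = 0.143) or without 2KO replicate 2 (0.0856). Hist1h1c (H1f2) stood at 35.0 and 45.4 CPM against 21.4 and 23.3 CPM, also without overlap. Its log2 fold change of -0.85 (SE 0.23, adjusted p = 0.0376) did not pass without control replicate 2 (0.133), 2KO replicate 1 (0.142) or 2KO replicate 2 (0.0759).

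The other H1 genes did not pass. Hist1h1a (H1f1) ranged over 15.0 and 24.6 CPM in control and 9.92 and 18.9 CPM in 2KO, so that the groups overlapped. Its log2 fold change was -0.46 (adjusted p = 0.46). Hist1h1t, the testis-specific H1, was at most 0.821 CPM in any library.

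The promoters of the 5 somatic H1 genes are shown because 4 of these genes fell in the test on all 4 libraries. Each stretch is the 150 bases before the transcription start of the RefSeq model in GRCm38.p6, 5′ to 3′ on the gene's strand. Capitals mark AAACACA (the H1 box), CCAAT and TATAAA on either strand, none of which overlap here. In the order printed the stretches are chr13:23763518-23763667 (plus), chr13:21780626-21780775 (minus), chr13:23738657-23738806 (plus), chr13:23554882-23555031 (plus) and chr13:23622559-23622708 (minus).
Hist1h1a: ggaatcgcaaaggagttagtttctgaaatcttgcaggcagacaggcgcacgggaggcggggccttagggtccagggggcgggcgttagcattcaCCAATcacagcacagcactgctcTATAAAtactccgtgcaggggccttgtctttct
Hist1h1b: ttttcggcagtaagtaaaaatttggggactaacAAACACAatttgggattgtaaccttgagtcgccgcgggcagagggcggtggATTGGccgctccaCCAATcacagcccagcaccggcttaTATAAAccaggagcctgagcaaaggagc
Hist1h1c: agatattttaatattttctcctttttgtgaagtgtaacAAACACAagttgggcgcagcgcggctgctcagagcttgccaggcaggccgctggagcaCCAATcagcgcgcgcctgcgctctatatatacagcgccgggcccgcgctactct
Hist1h1d: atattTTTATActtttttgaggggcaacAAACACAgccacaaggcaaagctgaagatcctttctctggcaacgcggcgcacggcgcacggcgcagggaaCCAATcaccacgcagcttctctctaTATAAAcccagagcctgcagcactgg
Hist1h1e: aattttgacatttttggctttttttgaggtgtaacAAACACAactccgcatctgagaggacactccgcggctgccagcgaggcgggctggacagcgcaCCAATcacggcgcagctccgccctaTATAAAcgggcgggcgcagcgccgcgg

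Hist1h1b, Hist1h1c, Hist1h1d and Hist1h1e, the 4 that fell, carry the H1 box 112 to 122 bases before the start and a CCAAT 51 to 54 bases before it. Hist1h1a has a CCAAT 56 bases before the start and no AAACACA in the 150 bases. TATAAA was 26 to 33 bases before the start in each except Hist1h1c. Hist1h1d, which fell most, holds the same elements at nearly the same places as Hist1h1e and Hist1h1b. Its GENCODE gene model begins at 23553262, upstream of the stretch printed from RefSeq. Hist1h1t, barely counted and not called, also has an H1 box and a CCAAT in its promoter. The log2 fold change of Hist1h1a (-0.46, SE 0.36) was not tested against those of the genes that fell. Whether the H1 box goes with the fall was not tested. A match of letters is a description and not a binding site.

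Over the 62 histone genes matched in the RefSeq promoter table (250 bases before to 50 after the start, both strands), CCAAT was in 53 (85.5%), against 37.317% of 32789 other promoters. It was in every matched H1, H2A, H2B and H3 promoter but in 3 of 12 H4 promoters. TATAAA was in 35 (56.5%), against 13.535% of the others. The octamer ATTTGCAT, the element bound by the OCT1 transcription factor, was in 7 of 18 H2A promoters, 6 of 16 H2B promoters and 0 of the rest, against 1.696% of the others. The H1 box was in 5 of 6 H1 promoters, 2 of 18 H2A promoters, 2 of 16 H2B promoters and no H3 or H4 promoter, against 7.17% of the others.

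Among the H2A genes, 3 of 14 tested fell and 11 did not pass; 4, 1, 3 and 1 fell without control replicate 1, control replicate 2, 2KO replicate 1 and 2KO replicate 2. Hist1h2ak (chromosome 13, 21753435 to 21753827, minus strand) was the most abundant H2A gene, at 189 and 132 CPM in control and 80.0 and 88.6 CPM in 2KO. The controls differed from each other by more than the 2KO-labelled libraries did, but both stood above them. The log2 fold change was -0.93 (SE 0.19, adjusted p = 0.0118) and it passed in all 4 fits without 1 library.

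Both neighbouring H2A genes at the start of the Hist2 cluster fell. Hist2h2ac stood at 28.3 and 41.0 CPM in control and 19.3 and 15.2 CPM in 2KO (log2 fold change -1.01, SE 0.27, adjusted p = 0.0341). Hist2h2ab stood at 8.82 and 19.8 CPM against 4.82 and 3.91 CPM (log2 fold change -1.71, SE 0.45, adjusted p = 0.0334). In both genes control replicate 2 was the highest library. Without it the adjusted p was 0.124 for Hist2h2ac and 0.259 for Hist2h2ab, whose log2 fold change then was -1.01. Without 2KO replicate 2 the adjusted p was 0.13 and 0.0507. Exons of Hist2h2ab overlap the antisense gene Gm15444, and the strand setting of the counting is not known.

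Hist1h2ab stood at 24.5 and 30.7 CPM in control against 14.2 and 17.6 CPM in 2KO, without overlap, and did not pass (log2 fold change -0.79, adjusted p = 0.0726).

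Among the H2B genes, 1 of 16 tested fell, and 3, 1, 0 and 4 did when control replicate 1, control replicate 2, 2KO replicate 1 or 2KO replicate 2 was left out. The gene was Hist1h2bc, at 38.2 and 39.3 CPM in control and 16.7 and 24.1 CPM in 2KO. The controls were nearly equal and above both 2KO-labelled libraries. Its log2 fold change was -0.92 (SE 0.25, adjusted p = 0.0344), and -0.69 with an adjusted p of 0.231 without 2KO replicate 1. The 3 most abundant H2B genes did not pass. Hist1h2bl stood at 158 and 159 CPM against 108 and 141 CPM (log2 fold change -0.35, adjusted p = 0.212), and Hist1h2bm at 82.0 and 78.7 against 61.6 and 80.0 CPM (-0.18, adjusted p = 0.58). Hist1h2be stood at 39.0 and 54.0 against 38.6 and 56.3 CPM, the libraries of each group spanning nearly the same range (0.03, adjusted p = 0.956). Hist1h2bj varied more between replicates than between groups, at 6.13 and 15.0 CPM in control and 2.50 and 9.25 CPM in 2KO (-0.84, adjusted p = 0.414). Its log2 fold change ran from -2.09 to -0.06 without 1 library and passed without 2KO replicate 2 (adjusted p = 0.0293). In 2KO replicate 2 most of the H2B genes named here were closer to control than in 2KO replicate 1.

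Among the H3 genes, 1 of 10 tested fell and 9 did not pass; leaving out the libraries in that order gave 2, 0, 1 and 0 that fell. Hist1h3f stood at 8.73 and 14.0 CPM in control and 4.31 and 2.33 CPM in 2KO (log2 fold change -1.78, SE 0.49, adjusted p = 0.0376). It did not pass without control replicate 2 (0.133) or without 2KO replicate 2 (0.142). Hist1h3e, the most abundant H3 gene, had 29.6 and 31.5 CPM in control against 35.6 and 40.6 CPM in 2KO, a small difference upwards that did not pass (0.32, adjusted p = 0.364). Hist1h3g, at 15.8 and 14.2 against 8.62 and 11.8 CPM (-0.56, adjusted p = 0.294), and Hist1h3i, at 9.46 and 15.9 against 4.82 and 8.26 CPM (-0.95, adjusted p = 0.17), were lower without overlap and did not pass. Hist2h3b was at 6.67 and 5.57 CPM in control, 7.66 CPM in 2KO replicate 1 and 18.4 CPM in 2KO replicate 2. Its log2 fold change of 1.09 (adjusted p = 0.141) rested largely on that last library, and it passed only in the fit without 2KO replicate 1. Of its 100-base windows 77.1% also occur in another gene.

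Among the H4 genes, 1 of 12 tested fell, and 2, 0, 1 and 2 did without 1 library in the same order. Hist1h4d (chromosome 13, 23581598 to 23582735, plus strand) had the most counts of any histone gene, at 515 and 425 CPM in control and 429 and 577 CPM in 2KO. Each group had 1 library near 430 CPM and 1 well above, and the log2 fold change was 0.10 (SE 0.17, adjusted p = 0.768). Its direction was the opposite without control replicate 2 (-0.03) or without 2KO replicate 2 (-0.14). Per length, in the authors' deposited FPKM, it stood at 2795, 2602, 2638 and 3268 in the 4 libraries, control first.

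Hist1h4c did fall, from 47.1 and 77.3 CPM to 31.2 and 32.3 CPM (log2 fold change -0.97, SE 0.24, adjusted p = 0.0274). Control replicate 2 was the highest library, and without it the log2 fold change was -0.56 with an adjusted p of 0.147. Hist2h4 had a similar size of difference, at 18.9 and 32.1 CPM against 10.2 and 15.1 CPM, and did not pass (-1.01, adjusted p = 0.07). Hist1h4j overlapped, at 23.8 and 12.1 against 19.1 and 18.9 CPM (0.08, adjusted p = 0.91).

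**Figure D2:**
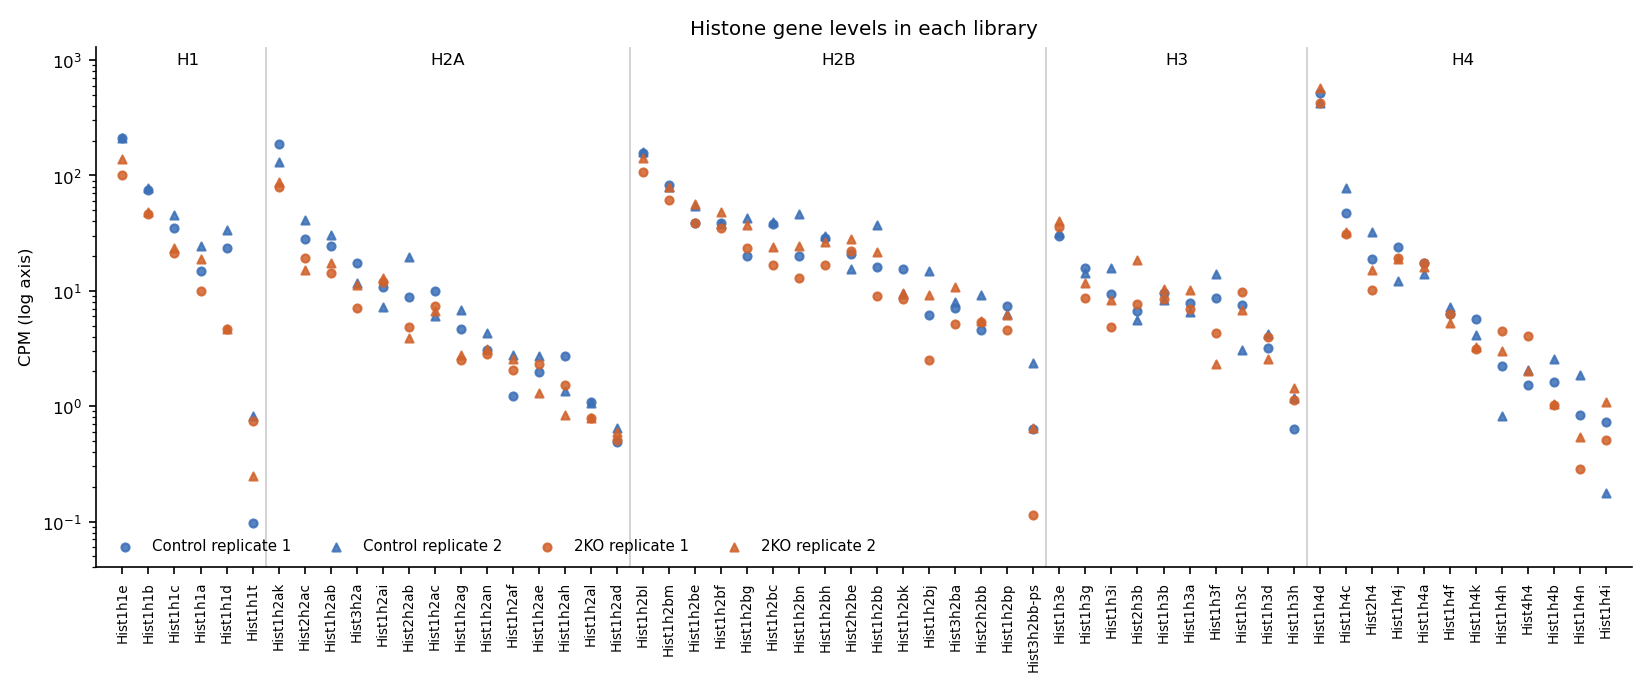
CPM of each tested histone gene in each of the 4 libraries on a log axis, grouped by histone type and ordered by mean level; blue marks are control, orange marks 2KO, circles replicate 1 and triangles replicate 2. Hist1h4d stands above all others with its 4 libraries intermixed, while for Hist1h1d the orange marks near 5 CPM lie far below the blue.

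Because near-identical copies can split or lose reads, levels were also summed by type, described here with no test. The H1 sum was 360.2 and 396 CPM in control and 183 and 235 CPM in 2KO, that is 55.3% of the control mean. The H2A sum was 304 and 268 against 157 and 168 CPM, or 56.9% of control. For both types the 2 groups were well apart. The H2B sum was 503 and 590.4 against 370.0 and 529 CPM (82.2%), with the groups overlapping. The H3 sum was 99.2 and 104 against 91.4 and 113 CPM (100.2%), and the H4 sum 641 and 579 against 526 and 675 CPM (98.4%). The H3 and H4 groups overlapped.

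The H4 sum was made mostly of 1 gene. Hist1h4d was 76.8 ± 4.93% (SD, n = 2) of summed H4 CPM in control and 83.4 ± 2.79% (SD, n = 2) in 2KO. The other H4 genes summed to 126 and 154 CPM in control and 97.6 and 98.6 CPM in 2KO, 69.9% of control and without overlap. The H1 sum did not rest on Hist1h1d: without it the 2KO mean was 58.5% of control. Within H1, Hist1h1e made up 56.3 ± 3.52% in control and 57.1 ± 3.08% in 2KO, while Hist1h1d went from 7.48 ± 1.37% to 2.27 ± 0.377% (SD, n = 2 each). The H2A sum was largely Hist1h2ak, which fell. It made up 55.7 ± 9.15% of summed H2A CPM in control and 51.7 ± 1.26% in 2KO (SD, n = 2 each). Of 19 H2A genes 15 had counts, and those with 0 counts add nothing to the CPM sum.

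Over all 69 genes the sum was 1908 and 1938 CPM in control and 1328 and 1720 CPM in 2KO, 79.3% of control, and 2KO replicate 1 was the lowest library. H1 made up 19.7 ± 1.10% of this sum in control and 13.7 ± 0.118% in 2KO (SD, n = 2 each). H2A made up 15.9 and 13.8% in the control libraries and 11.8 and 9.78% in the 2KO-labelled ones. The shares in control and 2KO were for H2B 28.4 ± 2.88% and 29.3 ± 2.06%, H3 5.29 ± 0.134% and 6.72 ± 0.229%, and H4 31.8 ± 2.62% and 39.4 ± 0.260%. These shares sum to a whole, so that a lower share of one type goes with a higher share of others, and differences between types were not tested. Per length, the deposited FPKM summed to 974 and 1149 for H1 in control and 532 and 665 in 2KO. The H2A sum was 1640 and 1704 against 887 and 912 FPKM, H2B 2324 and 2848 against 1766 and 2457, H3 545 and 644 against 548 and 673, and H4 3554 and 3582 against 3252 and 3827. On this scale too H1 and H2A were the types whose groups did not overlap.

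**Figure D3:**
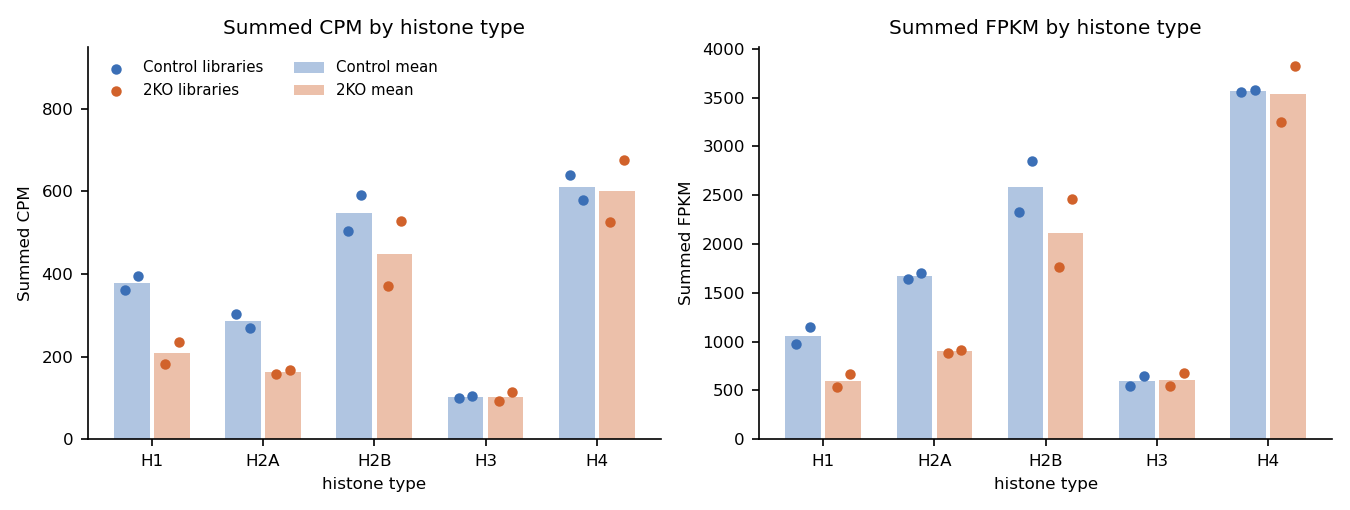
Levels summed over all genes of a histone type, in CPM (left) and in the authors' FPKM (right); points are libraries and bars are means of 2 libraries, blue for control and orange for 2KO. The orange points lie below the blue for H1 and H2A on both scales and overlap them for H2B, H3 and H4.

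By cluster symbol, 8 of 48 tested Hist1 genes and 2 of 6 tested Hist2 genes fell, and none of 3 in Hist3 or 1 in Hist4. The Hist1 genes here include Hist1h2al, which lies apart from the others. Of all tested genes 4.92% fell. In CPM the Hist1 sum in 2KO was 79.6% of control and the Hist2 sum 73.5%. In FPKM they were 83.3% and 57.4%. Hist1 summed to 1793 and 1791 CPM in control and 1242 and 1610 CPM in 2KO. Hist2 summed to 88.2 and 123 CPM against 69.5 and 85.9 CPM, with control replicate 2 the highest. Genes lying within 100 kb of each other were taken as a block. The block of 233 kb from Hist1h4h to Hist1h1a (chromosome 13, 23531050 to 23764406) held 29 genes, all tested, of which 6 fell, with a median log2 fold change of -0.20. The block of 122 kb from Hist1h2bl to Hist1h2br (21715763 to 21837530) held 18 genes, 13 tested and 2 fallen, with a median of -0.35. The block of 8.51 kb from Hist1h2ah to Hist1h2bj held 5 genes, none of which passed, with a median of -0.79. The Hist2 block on chromosome 3 (96219865 to 96270132) held 10 genes, 6 tested and 2 fallen, with a median of -0.67.

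Genes that fell had neighbours that did not. Hist1h1d, for instance, lies between Hist1h4f and Hist1h3e, whose log2 fold changes were -0.23 (adjusted p = 0.79) and 0.32 (adjusted p = 0.364). Hist1h4c lies next to the testis H1 gene Hist1h1t, which was barely counted.

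**Figure D4:**
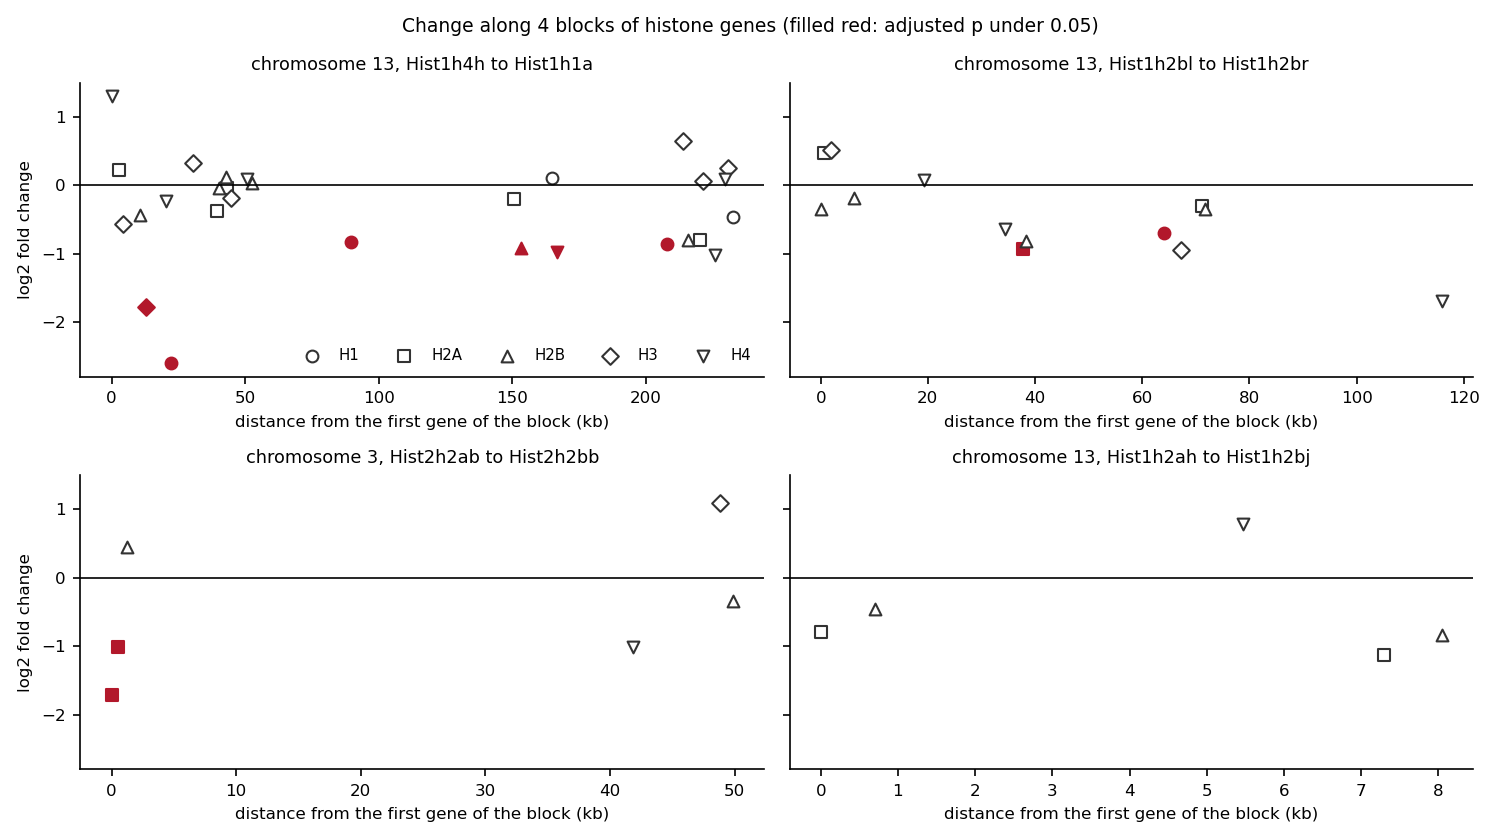
Log2 fold change of tested histone genes against distance in kb from the first gene of each of the 4 blocks with at least 5 tested genes; marker shapes give the histone type and red filled markers have an adjusted p under 0.05. In the block from Hist1h4h to Hist1h1a the 6 red points are spread over most of its length among open points near 0.

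H2A and H2B genes often lie head to head on either side of a shared promoter. There were 13 such pairs, 172 to 305 bases apart, and both genes were tested in 10. In no pair did both genes pass. Hist1h2ak (-0.93, fell) and its partner Hist1h2bn (-0.81, adjusted p = 0.21) had log2 fold changes of like size. Hist1h2bc (-0.92, fell) faces Hist1h2ac (-0.20, adjusted p = 0.813, and -0.50 to 0.23 without 1 library) across 250 bases. Hist2h2ac (-1.01, fell) faces Hist2h2be (0.45, adjusted p = 0.309) across 238 bases. The difference between partners was not tested.

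Copies limited what could be counted. For each gene, the share of 100-base windows of its annotated transcripts that also occur in a transcript of another gene was computed, 100 bases being the read length. Other genes whose exons overlap those of the gene were left out. Sequence shared through overlap, as between Hist1h1e and Hist1h2be, is therefore not in these shares. The 8 genes with 0 counts in all 4 libraries had a median of 92.5% of windows shared (61.6 to 100.0%), and the 61 genes with counts 28.4% (0 to 92.0%). They were Hist1h2ao, Hist1h2ap, Hist1h2bq, Hist1h2br, Hist1h4m, Hist2h2aa1, Hist2h2aa2 and Hist2h3c2. A count of 0 allows up to 0.147 to 0.176 CPM, depending on the library and for counting error only. It does not show that these genes were silent. In the deposited FPKM, Hist1h2ap stood at 26.5, 53.9, 21.4 and 19.5 (control libraries first), and the cause of this disagreement between the measures was not tested. Hist1h2aa, Hist1h2ba and Hist2h3c1 had counts in at most 2 libraries and were not tested either.

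The genes that fell were mostly distinct in sequence from genes not overlapping them, with 0 to 34.3% of windows shared. Of the 24 genes with over 50% of windows shared, 16 were tested and none fell. Of the other 45, 42 were tested and 10 fell. The median log2 fold changes of these sets were alike, -0.41 and -0.36. Over all tested genes 4.92% fell, and none of 16 is not far from that share. Sharing differed by type, from a median of 0.400% for H1 to 63.6% for H2A, with 31.1% for H2B, 40.0% for H3 and 19.0% for H4. The 3 H2A genes that fell were well below their type's median, at 10.5% for Hist1h2ak, 1.4% for Hist2h2ab and 6.9% for Hist2h2ac.

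**Figure D5:**
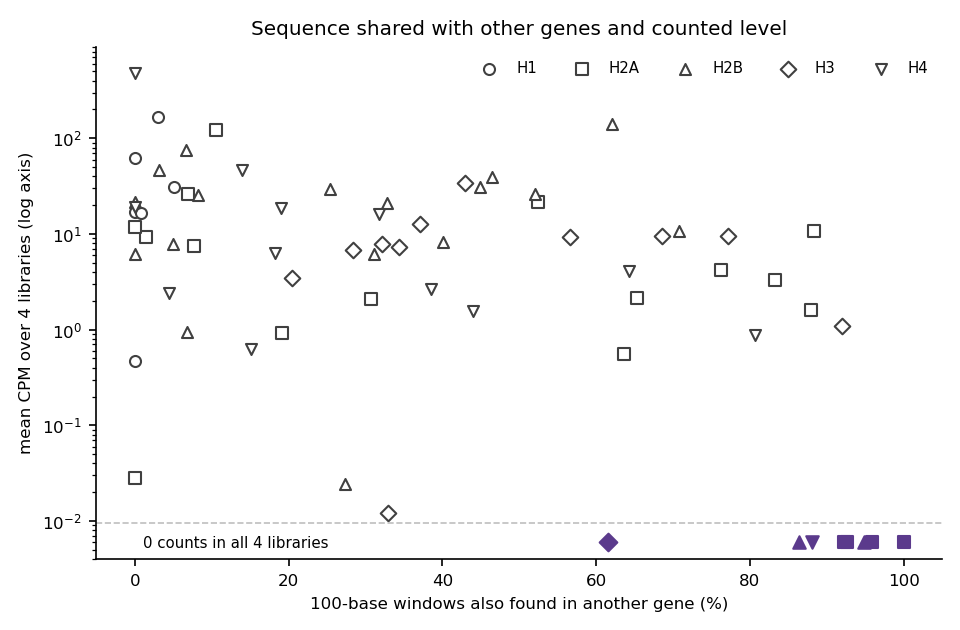
Percent of 100-base windows of each histone gene's transcripts that also occur in another gene without overlapping exons. It is drawn against mean CPM over the 4 libraries on a log axis, and marker shapes give the histone type. The 8 genes with 0 counts, drawn in purple below the dashed line, all lie above 60%, and the H1 genes all lie near 0%.

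Precision went with level as well. The counts that follow stand beside the 4.92% of all tested genes that fell. Of 19 tested genes whose mean level was 20 CPM or more, 7 fell and the median standard error of the log2 fold change was 0.24. Among 22 genes of 5 to 20 CPM, 3 fell and it was 0.42. Among 17 genes under 5 CPM none fell and it was 0.88, so that changes of these genes were poorly resolved at this depth. The median log2 fold change also differed by level, at -0.70, -0.35 and -0.30 from the highest level to the lowest. What part precision had in the number of genes that fell was not tested.

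Genes of the histone pathway were read from 6 lists. Their counts stand beside the 4.92% of all tested genes that fell and the 7.00% that rose. Lists with 1 or 2 genes called were not far from these shares. DESeq2 and limma-voom also called 0 genes higher in each of the first 5; at an unadjusted p under 0.05 edgeR had 2, 1, 1, 0 and 1 higher in the order in which they follow. Of 30 tested genes of histone mRNA 3′ end processing and decay, 2 fell and 0 rose, with a median log2 fold change of -0.16. They were Ncbp1, the large subunit of the nuclear cap-binding complex, and Zcchc6, a uridylyltransferase that tags RNAs for decay. Leaving out 1 library gave 3 lower and 1 higher (without control replicate 1), 0 called (without control replicate 2 or 2KO replicate 1) and 1 lower (without 2KO replicate 2). Slbp, the stem-loop binding protein, stood at 56.5 and 58.6 CPM in control and 42.0 and 43.8 CPM in 2KO and did not pass (-0.42, adjusted p = 0.164). Npat, the coactivator of histone gene transcription, stood at 63.8 and 57.7 against 77.0 and 87.4 CPM and did not pass (0.44, adjusted p = 0.134). Both were named after their values were seen. Slbp was lower and Npat higher in 2KO without overlap.

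Of 23 histone chaperone and import genes, 5 fell and 0 rose (median -0.30). Ssrp1 and Supt16 encode both subunits of FACT, which moves nucleosomes aside for polymerases. Ssrp1 stood at 162 and 174 CPM in control and 90.2 and 106 CPM in 2KO (-0.77, adjusted p = 0.0123), and Supt16 at 201 and 229.8 against 134 and 136 CPM (-0.67, adjusted p = 0.0183). The other 3 were Rbbp7, Hira and Anp32e. Without 2KO replicate 1 none of the 5 passed, and without 2KO replicate 2 only Ssrp1 did.

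Of 12 tested replacement histones, most of them made outside S phase from polyadenylated messages, only H1f0 fell (median -0.26). H1f0 encodes H1.0, the replication-independent linker histone of resting and differentiating cells. It stood at 437 and 409 CPM in control and 183 and 254 CPM in 2KO (-0.95, adjusted p = 0.0061) and passed in all 4 fits without 1 library. Without control replicate 1 the list had 3 lower and 1 higher, and without control replicate 2 it had 2 lower. H2afz (0.12, adjusted p = 0.747), H3f3a (-0.22, adjusted p = 0.404) and H3f3b (-0.32, adjusted p = 0.311) did not pass.

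Of 43 DNA replication genes, 6 fell and 0 rose (median -0.37), and of 30 genes of G2 and mitosis 12 fell and 0 rose (median -0.61). In the first list Rrm1, the large subunit of ribonucleotide reductase, stood at 202 and 289 CPM in control and 104 and 129.6 CPM in 2KO (-1.07, adjusted p = 0.00651). Lig1, the DNA ligase of replication, stood at 131 and 135 against 66.5 and 78.5 CPM (-0.88, adjusted p = 0.00765). In the second Top2a, the topoisomerase of dividing cells, stood at 600.2 and 573 against 253 and 315 CPM (-1.05, adjusted p = 0.00167), and Ccna2, cyclin A2, at 104 and 131 against 54.2 and 61.8 CPM (-1.02, adjusted p = 0.00603). Leaving out 1 library at a time gave 3 to 12 fallen replication genes and 7 to 13 mitotic ones. The part of these cell cycle genes in the histone result was not tested.

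Of 18 genes of H2A ubiquitination and its removal, none fell and 2 rose (median 0.24); edgeR had 2 lower at an unadjusted p under 0.05, and DESeq2 and limma-voom called 0 lower. They were Bmi1, a PRC1 subunit, from 24.2 and 41.0 to 58.9 and 77.0 CPM (1.06, adjusted p = 0.0243), and Rybp, a subunit of variant PRC1, from 66.5 and 81.6 to 108 and 131 CPM (0.69, adjusted p = 0.0325). Neither passed without 2KO replicate 2, where this list had 0 called genes.

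Markers of cell makeup also differed. The counts that follow stand beside the 4.92% of all tested genes that fell and the 7.00% that rose. Of 11 tested suprabasal keratinocyte markers 6 fell and 1 rose, and the list summed to 3828 and 2668 CPM in control and 1338 and 636 CPM in 2KO. Endothelial markers summed to 35.9 and 29.1 against 53.9 and 75.0 CPM with none of 10 passing (3 higher at an unadjusted p under 0.05, 2 called by DESeq2 and 1 by limma-voom), and leukocyte markers to 31.8 and 22.2 against 57.7 and 47.2 CPM. Of 5 tested leukocyte markers only Cd68, a lysosomal protein of macrophages, rose, at 21.3 and 11.9 against 47.2 and 39.0 CPM; the median of the 5 was -0.56, so that the higher sum reflects Cd68 and not the list as a whole. Mesenchymal markers ranged from 358 to 430.3 CPM and those of neural crest and glia from 96.4 to 146 CPM, with the groups overlapping. Of 11 tested mesenchymal markers 1 fell, Postn (log2 fold change -0.99), and 0 rose. None of 7 tested markers of neural crest and glia passed. Erythroid markers summed to at most 8.23 CPM, with Hba-a1, Hba-a2 and Hbb-bs at 0 counts. That 0 does not show absent globin RNA: the deposited FPKM, control libraries first, was 14.6, 39.1, 13.7 and 39.3 for Hba-a1 and 28.5, 86.2, 16.7 and 40.1 for Hbb-bs. The part of these shifts in the histone result was not tested.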

How the data were processed

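Raw counts and FPKM values per gene, as the authors deposited them, were used. The submitters' processing notes name HTSeq 0.6.1, Cufflinks 2.2.1, TopHat2 2.0.13 and DESeq2 1.6.3, with build mm10. The sources used here give neither the annotation nor the strand setting. Reads were amplified copies without molecular identifiers, so limits cover counting error only.

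The test was edgeR's two-sided quasi-likelihood test (edgeR 4.0.16, R 4.3.3) of genotype on the deposited counts, after filterByExpr and TMM. Adjustment (Benjamini-Hochberg) was over 15336 genes, with a threshold of 0.05. CPM uses TMM-scaled library sizes. Each SE is the size of the log2 fold change divided by the square root of the test's F statistic. That statistic draws on the spread of all genes and not only on the libraries of 1 gene. The biological coefficient of variation was 0.313, and replicates of both groups differed by more than sampling noise (chi-square per degree of freedom 28.7 and 22.7). Replicate numbers did not pair the libraries (r = -0.0232 over 15336 genes). The steps were also run on simulated counts, and the outcome is not used here as support. Alternatives were RLE and upper-quartile scaling, DESeq2 1.42.0, limma-voom (limma 3.58.1), other filters, limma on log2(FPKM + pseudocount), a replicate block and each library left out; the sums without Hist1h4d or Hist1h1d were chosen after seeing the data. Sequences were read from GENCODE M21 transcripts and the RefSeq GRCm38.p6 promoter table, in which 62 of 69 genes matched.

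The genes and lists were chosen with earlier results of these data known. Named among the histone genes were all that passed, the 3 with the highest mean FPKM of each type, the 2 with the largest absolute log2 fold change of each type with a mean of at least 5 CPM, and those not tested. From each list at most 6 genes that passed were eligible, by smallest p. Ring1, Rnf2, Rn45s and H1f0 were added. Other genes named (Hist1h1a, Hist1h1t, Hist1h2ac, Hist1h2bn, Hist2h2be, Hist1h4f, H2afz, H3f3a, H3f3b, Slbp, Npat and marker genes) were chosen for their place, type or role after their values were seen.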

Additional observations from a re-analysis of the deposited data

How the results depend on the processing

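The 10 histone genes that fell were the same 10 under RLE scaling, upper-quartile scaling, a filter of at least 1 CPM in 2 libraries and without Rn45s, Malat1 and Lars2; limma-voom called 9, DESeq2 11 and the fit with no filter 14. With limma on FPKM the number was 3 (pseudocount 1), 2 (pseudocount 0.1) and 0 (no filter, where 0 of all genes were called and 19 histone genes had an unadjusted p under 0.05). Leaving out 1 library gave 5 to 15 genes that fell and 0 to 1 that rose, the latter Hist2h3b without 2KO replicate 1. A count of 0 genes that rose was also given by DESeq2 and limma-voom. The 28 called genes of the pathway lists became 5, 3 and 0 on FPKM in the same order, and 13 to 41 without 1 library, the lowest without 2KO replicate 1 and 18 without 2KO replicate 2. Among the histone genes named by rule, direction changed for Hist1h2be without control replicate 1 (-0.17) or 2KO replicate 2 (-0.28), for Hist1h4d without control replicate 2 (-0.03) or 2KO replicate 2 (-0.14), and for Hist1h4j without control replicate 2 (-0.32). Leaving out 1 library gave -0.28 to 0.29 for Hist1h2be, -0.14 to 0.29 for Hist1h4d and -0.32 to 0.67 for Hist1h4j. Over all 58 tested histone genes, the direction differed among these 4 fits for 15. The cause was not tested. The log2 ratio of the H4 sum was -0.02, and -0.52 leaving out Hist1h4d. With a replicate block, 11 histone genes fell (Hist2h4 in addition) and 33 list genes were called, but the libraries share only a number. Genes called higher were 58.7% of calls, against 65.6% with upper-quartile scaling and 71.3% and 70.6% on FPKM. Over the histone genes named by rule, 275 of the alternative values kept direction and side of the threshold, 40 no longer passed, 10 newly passed and 5 changed direction.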
